A study of Homo sapiens with 9 samples.

Results

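The transcripts of RBE cells that received a lentivirus carrying an shJOSD2 hairpin were compared with those of RBE cells that received a scramble hairpin. RBE is an established human cell line from a cholangiocarcinoma, the cancer of bile ducts, of the kind that arises within the liver. The genes compared are those of the deposited expression table that passed a filter on low counts, 21492 of 36225, in 6 of the 9 libraries of the study: 3 control libraries (Ctrl, scramble) and 3 shJOSD2 libraries. The other 3 libraries come from RBE cells with an shIDH1 hairpin, and are used to estimate the spread and to test where the 2 knockdowns differ. Every group, the controls included, is a lentivirus-infected culture of the same line, so the control carries the infection and the alleles of RBE as well. In its title the series names mutant IDH1, JOSD2 and the coactivators YAP and TAZ, and the question here is which RNAs change once JOSD2 is lowered. The labels give 1 hairpin name per target and no hairpin sequence, so loss of JOSD2 and other effects of that hairpin cannot be told apart. Nor is it stated that replicate libraries stem from separate infections, so the spread that the p-values rest on may be a technical one.

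JOSD2 is a small cysteine protease of the Josephin family of deubiquitinases, which also holds JOSD1 and ataxin-3. Such enzymes remove ubiquitin from other proteins and so can protect them from the proteasome, and JOSD2 has been described as stabilising YAP and TAZ and several enzymes of glycolysis. Its direct action is on proteins, while RNA sequencing reads the transcripts that lie downstream. YAP and TAZ are held in the cytoplasm by the Hippo kinase cascade and, once in the nucleus, work through TEAD factors on genes of growth and of the cell's attachment.

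Library totals lay between 66036276 and 70157474 deposited counts in the 6 libraries. FPKM values (fragments per unit of transcript length and of library size) are given per library in the order of replicates 1, 2 and 3. Log2 changes are fitted by edgeR on the counts and carry their standard error. They are scaled by TMM factors, which place the median of all tested genes at 0.028, whereas scaling by library totals alone places it at 0.182, so a ratio of FPKM values lies a little above the fitted change. The control libraries were uneven for some transcripts: 39 genes had a value in control replicate 1 that both other controls exceeded at least 4-fold, at 1 FPKM or more, hepatocyte transcripts such as APOA1 among them. For that reason each result was computed again with control replicate 1 as the lone control, with the spread then taken from the knockdown libraries. That spread was smaller than that of the controls. Over 6178 genes with means of at least 5 FPKM in control and shJOSD2, the median SD over mean was 7.17% in control libraries. It was 5.63% in shIDH1 and 4.30% in shJOSD2 libraries, so calls with the lone control may be too lenient. The summed FPKM of the biliary lineage markers, led by the keratin KRT19, lay at 1710 to 1973 in control and 1631 to 1682 in shJOSD2 libraries, with CFTR and ONECUT1 at or near 0. Summed markers of other cells were low by comparison: 45.3 to 57.2 against 36.6 to 45.3 FPKM for leukocytes, 20.3 to 23.1 against 45.0 to 46.2 for fibroblasts and 0.727 to 0.824 against 0.941 to 1.26 for endothelium. Haemoglobin transcripts were uneven within both groups, with erythroid sums of 0.988 to 25.1 FPKM in control and 1.14 to 22.6 in shJOSD2 libraries, highest in control replicate 2 and shJOSD2 replicate 3.

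JOSD2 itself (ENSG00000161677, GRCh38 chromosome 19, 50505998 to 50511191, minus strand) stood at 6.66, 6.31 and 6.15 FPKM in the control libraries and 0.771, 0.708 and 0.906 in the shJOSD2 libraries. All 3 shJOSD2 libraries lay far below all 3 control libraries, at means of 0.795 ± 0.101 against 6.37 ± 0.260 FPKM (SD, n = 3). The fitted change was -3.09 ± 0.17 on the log2 scale, a 8.52-fold fall (edgeR's quasi-likelihood test, Benjamini-Hochberg adjusted p = 1.08e-07), and -3.12 with control replicate 1 alone. An exact two-sided permutation test of the FPKM values gave p = 0.1, the smallest that 3 against 3 libraries allow. The other Josephin enzymes did not pass the test. JOSD1 stood at 15.2, 13.1 and 15.1 FPKM in the control libraries and 15.4, 15.4 and 15.8 in the shJOSD2 libraries, with a fitted change of -0.04 ± 0.06 (edgeR, adjusted p = 0.650). ATXN3, which encodes ataxin-3, stood at 1.63, 1.20 and 1.41 FPKM in the control libraries and 1.301, 1.25 and 1.38 in the shJOSD2 libraries, with a change of -0.25 ± 0.12 (edgeR, adjusted p = 0.122). For ATXN3 the groups overlapped, and for JOSD1 the FPKM values of shJOSD2 libraries lay just above those of control. IDH1, the cytosolic isocitrate dehydrogenase named in the series title, stood at 45.6, 38.9 and 47.4 FPKM in the control libraries and 32.7, 35.2 and 35.5 in the shJOSD2 libraries and fell by 0.50 ± 0.07 (edgeR, adjusted p = 8.66e-05), by 0.52 with control replicate 1 alone. Its ranges did not overlap. Of 231 genes of the GO term for protein deubiquitination, 100 fell (43.3%) and 29 rose (12.6%), against 20.1% and 18.2% of all tested genes. Their median log2 change was -0.18, and -0.14 with control replicate 1 alone. Among those that fell, beside JOSD2 and BIRC3, was the deubiquitinase USP13, which went from a mean of 3.76 to 1.08 FPKM.

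**Figure D1:**
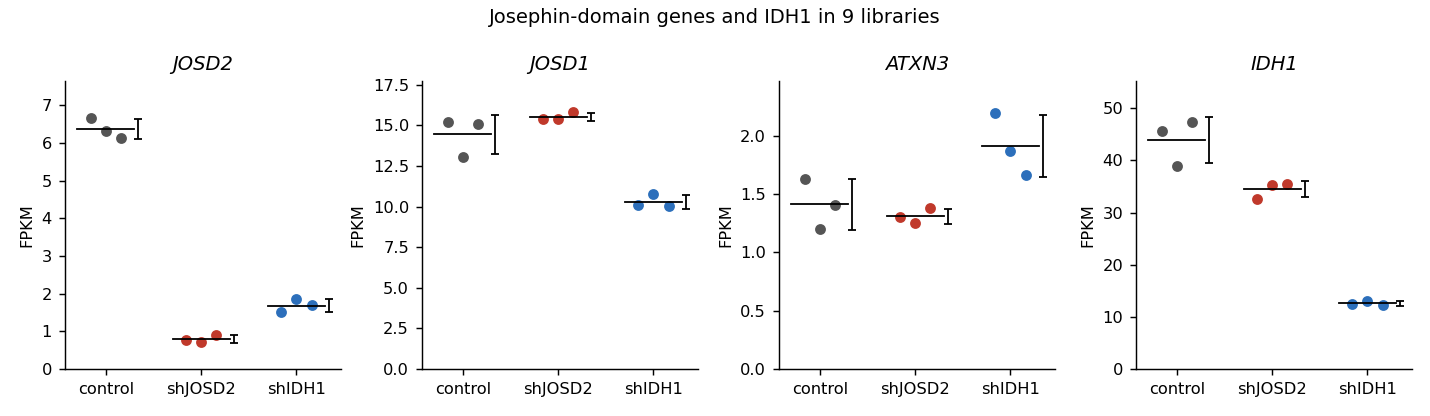
FPKM of JOSD2, JOSD1, ATXN3 and IDH1 in each of the 9 libraries, with the mean of each group as a line and the SD as a bar. JOSD2 lies at 0.771, 0.708 and 0.906 FPKM in the shJOSD2 libraries against 6.66, 6.31 and 6.15 in control, while the levels of JOSD1 and ATXN3 change little beside it.

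The knockdown went with a change in a large share of the transcriptome. Of 21492 tested genes 8237 (38.3%) passed the edgeR test at a Benjamini-Hochberg adjusted p under 0.05, 3907 of them higher (18.2%) and 4330 lower (20.1%) in shJOSD2 cells. At least 2-fold changes were fewer, 2328 genes (10.8%), of which 1415 were higher and 913 lower. In 11107 genes (51.7%) the FPKM values of control and shJOSD2 libraries were fully separate, and 7271 of these were called. FPKM carries no TMM factor, so separate FPKM ranges alone are not a call. With control replicate 1 as the lone control 5569 of 24341 genes were called (22.9%), 2534 higher (10.4%) and 3035 lower (12.5%), and 5146 genes were called in the same direction both ways. The balance of rises and falls depended on the scaling: library totals alone gave 5638 higher and 2934 lower, upper-quartile scaling 4827 and 3491, and limma on log2(FPKM + 1) gave 4381 and 2890. These shares are the background for the count of each gene group. They are taken over tested genes of all levels, and no share matched to the level of a group was computed. A group of abundant genes may therefore have another background than these shares.

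**Figure D2:**
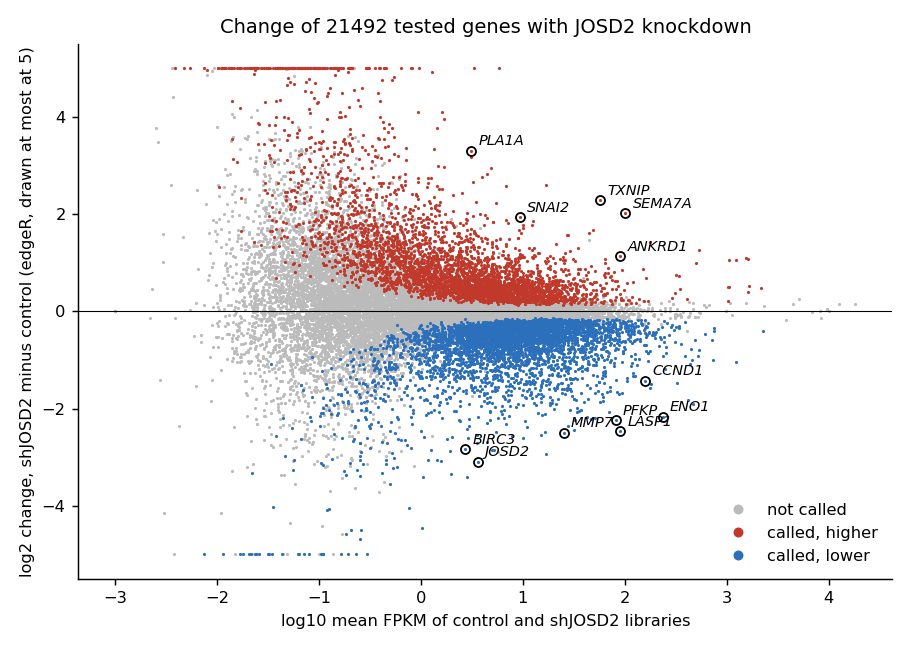
Each tested gene by its mean FPKM (log10 scale) and its fitted log2 change in shJOSD2 against control, with genes called higher and lower in colour. Genes beyond the axis, 195 in all, are drawn at its edge, and calls in both directions spread over most of the range of levels.

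Among well expressed genes, the largest rises included enzymes and receptors that control cells barely transcribed. PLA1A, a phospholipase A1, stood at 0.721, 0.451 and 0.374 FPKM in the control libraries and 4.87, 6.32 and 5.91 in the shJOSD2 libraries (log2 change 3.31 ± 0.21, edgeR adjusted p = 3.14e-07). ENPP5, a membrane-bound member of the nucleotide pyrophosphatase family, stood at 0.630, 0.592 and 0.481 FPKM in the control libraries and 5.49, 5.24 and 6.31 in the shJOSD2 libraries and rose by 3.17 ± 0.14 (edgeR, adjusted p = 1.60e-08). For both genes all knockdown libraries lay several-fold above all controls. TMEM86A, GLP2R (the receptor of glucagon-like peptide 2), ANKRD2 (a muscle ankyrin repeat protein), CAPN6 (a calpain without protease activity), ADAM12 (a metalloprotease) and the long noncoding RNAs LINC02154, AL078612 and PURPL rose by 1.99 to 2.94. SEMA7A, a membrane-anchored semaphorin, was the most abundant of the large rises, at 41.0, 39.8 and 29.5 FPKM in the control libraries and 157, 168 and 170.1 in the shJOSD2 libraries (log2 change 2.02 ± 0.12, edgeR adjusted p = 1.42e-07). FP565260 was listed at 0 FPKM in all 3 control libraries and at 3.52, 3.84 and 3.57 in shJOSD2 libraries, but also at 0 in 1 of the shIDH1 libraries and above it in the other 2, so no fold is given.

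The largest falls, JOSD2 aside, mixed cytoskeletal, secreted and proliferation genes. LASP1, which binds actin and sits at focal adhesions, stood at 147, 149 and 153 FPKM in the control libraries and 30.1, 30.0 and 30.1 in the shJOSD2 libraries and fell by 2.47 ± 0.05 (edgeR, adjusted p = 2.21e-10), the most even of the large falls. MMP7, the secreted protease matrilysin, stood at 51.8, 42.2 and 32.6 FPKM in the control libraries and 9.25, 7.42 and 8.09 in the shJOSD2 libraries and fell by 2.50 ± 0.14 (edgeR, adjusted p = 1.20e-07). Controls of MMP7 were spread, but the lowest stood well above the highest knockdown library. FUCA2, a fucosidase, stood at 43.4, 45.8 and 48.4 FPKM in the control libraries and 10.05, 9.41 and 10.4 in the shJOSD2 libraries and fell by 2.35 ± 0.07 (edgeR, adjusted p = 1.34e-09). The histone chaperone DNAJC9, the ribonucleotide reductase subunit RRM2, the nuclear lamin LMNB1, the mitotic kinase PLK1, PIMREG and the replication factor GINS2 fell by 2.33 to 2.60. The small RNA SCARNA22 and the noncoding KCCAT198 fell by 2.86 and 2.37. SCARNA22 lies within another gene, and poly(A) libraries are not made to measure it. IGF2, which encodes a fetal growth factor, and SLC2A3, a glucose transporter, were uneven in the controls: IGF2 stood at 3.06, 8.68 and 10.96 FPKM in control and 1.20, 1.73 and 0.981 in shJOSD2 libraries, and its fall went from 2.69 to 1.35 with control replicate 1 alone.

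**Figure D3:**
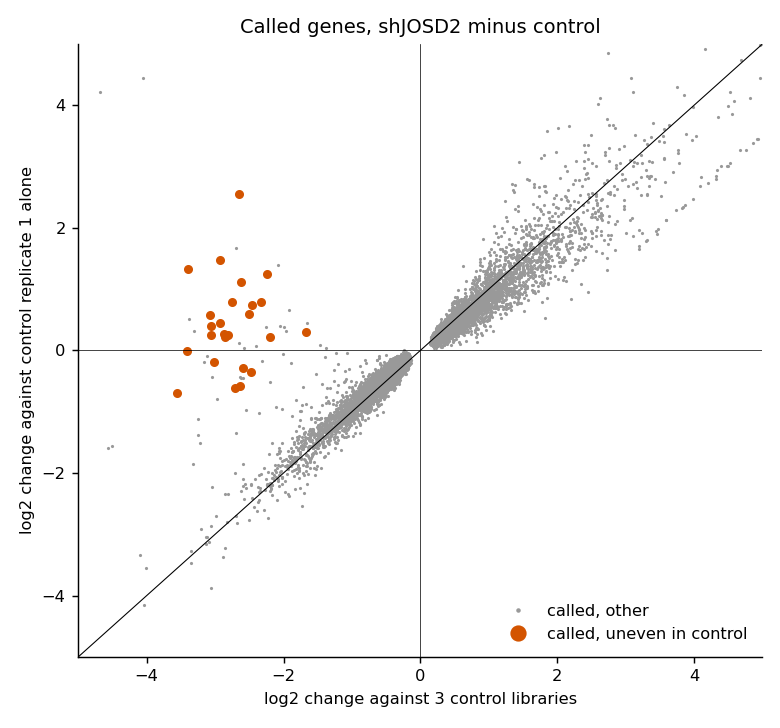
Fitted log2 change of each called gene with all 3 control libraries (horizontal) and with control replicate 1 alone (vertical). Orange marks 25 called genes that were at least 4-fold higher in control replicates 2 and 3 than in replicate 1, most of which lie within 1 log2 unit of 0 on the vertical axis, and 239 called genes fall outside the axes.

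Most genes of the NF-kB response fell. NF-kB dimers of REL-family subunits are kept inactive by IkB proteins, and on activation switch on cytokines, survival factors and their own inhibitors, so the IkB and A20 genes serve as readouts of the pathway. Many of these genes carry kappa-B motifs close to their start. The 250 bases upstream of the start of 3 such genes are shown because each held, on one of its strands, GGG, any 2 bases and then TTTCC, in capitals (RefSeq annotation of GRCh38.p14, gene strand, 5′ to 3′).

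NFKBIA, chr14:35404750-35404999, minus strand: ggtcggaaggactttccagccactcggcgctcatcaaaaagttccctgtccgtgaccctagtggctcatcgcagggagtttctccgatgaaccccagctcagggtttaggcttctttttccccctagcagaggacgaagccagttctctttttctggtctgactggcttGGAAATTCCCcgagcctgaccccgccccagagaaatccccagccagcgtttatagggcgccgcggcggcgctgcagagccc
BIRC3, chr11:102317234-102317483, plus strand: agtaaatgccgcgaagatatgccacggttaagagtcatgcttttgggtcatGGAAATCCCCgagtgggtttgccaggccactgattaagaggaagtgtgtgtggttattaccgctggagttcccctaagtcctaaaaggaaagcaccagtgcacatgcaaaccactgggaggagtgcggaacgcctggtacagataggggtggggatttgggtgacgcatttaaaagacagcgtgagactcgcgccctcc
NFKB2, chr10:102394328-102394577, plus strand: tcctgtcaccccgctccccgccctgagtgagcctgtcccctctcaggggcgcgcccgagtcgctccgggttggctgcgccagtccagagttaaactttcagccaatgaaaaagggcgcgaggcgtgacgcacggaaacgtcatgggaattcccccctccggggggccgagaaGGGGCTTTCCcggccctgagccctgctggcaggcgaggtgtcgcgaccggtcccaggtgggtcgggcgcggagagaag

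Over all 35116 promoter windows of this length, 608 (1.73%) held the motif on either strand. Of 21 genes of the NF-kB list with a window, 13 held it, in 14 of their 33 windows (42.4%). The genes of the list are in part known for such sites, and a match is a description, not a binding site.

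Of 24 tested genes of the NF-kB list 17 fell and 0 rose, with a median log2 change of -0.95, against 20.1% of all tested genes lower and a median of 0.028. With control replicate 1 alone 16 fell and the median was -0.79. Among the subunits, NFKB2, the precursor of p52, stood at 22.9, 22.8 and 21.1 FPKM in the control libraries and 9.20, 9.05 and 9.43 in the shJOSD2 libraries and fell by 1.42 ± 0.09 (edgeR, adjusted p = 1.77e-07). RELB, its usual partner in the non-canonical pathway, stood at 6.10, 5.96 and 6.04 FPKM in the control libraries and 2.66, 2.61 and 2.82 in the shJOSD2 libraries and fell by 1.31 ± 0.10 (edgeR, adjusted p = 1.21e-06). NFKB1, the precursor of p50, fell by 0.94 ± 0.08 and RELA, the p65 subunit, by 0.25 ± 0.06. The call of RELA was lost against control replicate 1 alone (edgeR, adjusted p = 0.0631), and REL did not pass the test, at -0.04.

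The inhibitors of the pathway fell as well. NFKBIA, which encodes IkB-alpha, stood at 31.1, 31.5 and 31.7 FPKM in the control libraries and 15.5, 15.2 and 15.4 in the shJOSD2 libraries, a gap with no overlap and little spread in either group, and fell by 1.18 ± 0.06 (edgeR, adjusted p = 3.99e-08). NFKBIE (IkB-epsilon) fell by 1.02 ± 0.13, TNFAIP3 (the deubiquitinase A20) by 0.98 ± 0.12 and TNIP1 (its partner) by 0.50 ± 0.08, while NFKBIB changed by -0.31 without passing the test. BIRC3 and BIRC2 encode the ubiquitin ligases cIAP2 and cIAP1. BIRC3 stood at 4.72, 4.03 and 5.40 FPKM in the control libraries and 0.702, 0.827 and 0.662 in the shJOSD2 libraries and fell by 2.83 ± 0.12 (edgeR, adjusted p = 1.31e-08), and BIRC2 fell by 0.69 ± 0.07. Of the cytokines, CXCL8 (interleukin-8) went from 4.85, 2.94 and 4.08 to 2.03, 1.54 and 1.96 FPKM and fell by 1.24 ± 0.20. CCL2, CXCL1 and CCL20 fell by 1.72, 1.55 and 1.06 at means under 5 FPKM, and CXCL2, CXCL3 and IL1B, all under 1 FPKM, did not pass the test. The most abundant member, TNFAIP2, and LIF did not pass it either, at log2 changes of -0.13 and 0.06. CARD10, the scaffold that links receptors to NF-kB in epithelial cells, went from 24.2, 22.7 and 25.2 to 9.76, 9.08 and 9.24 FPKM and fell by 1.51 ± 0.06 (edgeR, adjusted p = 4.96e-09).

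Wider terms around the pathway showed smaller shares. Of 105 genes of the KEGG TNF term 50 fell and 15 rose (median -0.31; 42 and 10 with control replicate 1 alone). Of 83 genes of the KEGG NF-kappa B term 32 fell and 11 rose, and of 71 genes of the IL-17 term 30 and 9. TNFRSF11A, the receptor RANK, fell from a mean of 2.00 to 0.531 FPKM, a change of -2.06 ± 0.12. CSF1, the macrophage growth factor, moved the other way, from 15.2, 12.6 and 11.02 to 40.2, 44.8 and 42.0 FPKM (log2 change 1.56 ± 0.10, edgeR adjusted p = 2.34e-07).

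**Figure D4:**
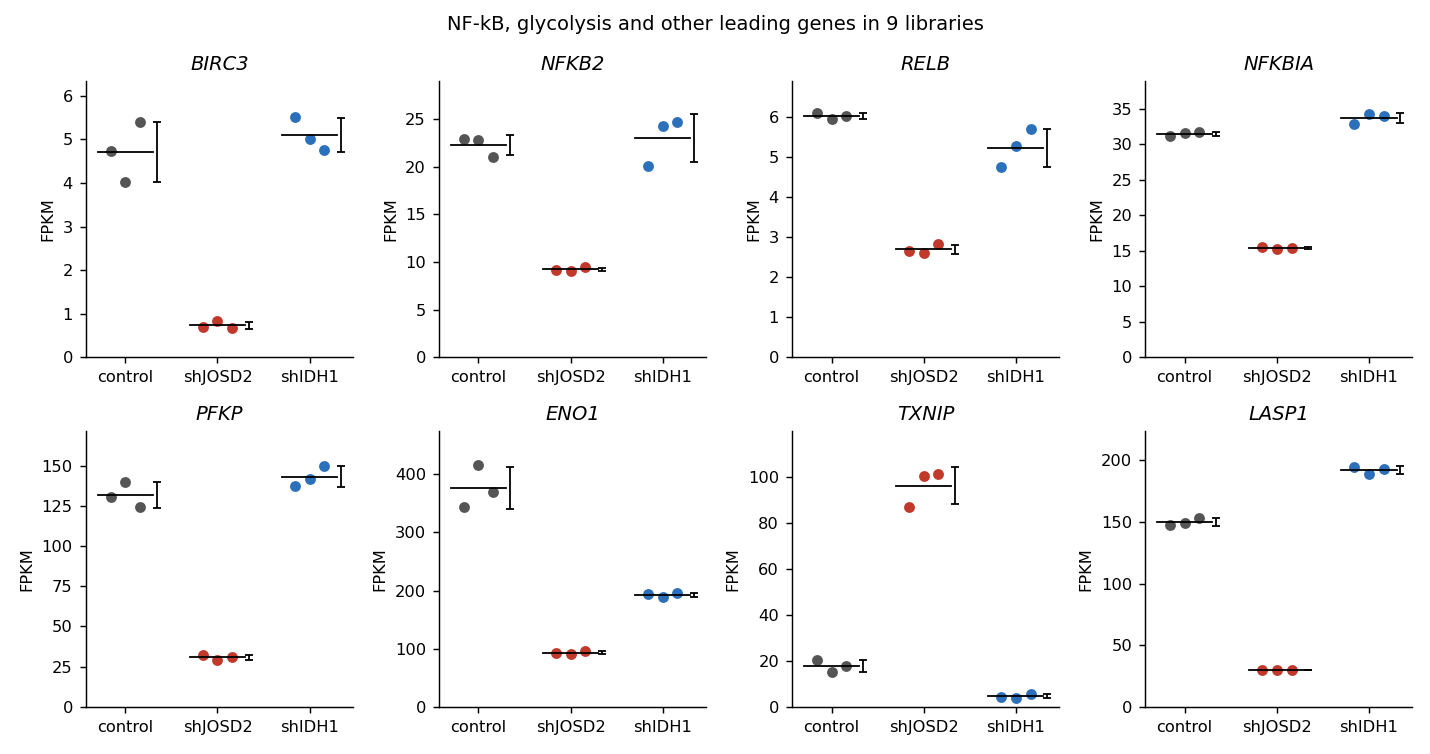
FPKM of BIRC3, NFKB2, RELB, NFKBIA, PFKP, ENO1, TXNIP and LASP1 by library in the control, shIDH1 and shJOSD2 groups, each gene on its own linear axis. TXNIP is the one gene of the 8 whose shJOSD2 libraries stand above control, at 86.9, 100.1 and 101 FPKM, and the other 7 stand below it there.

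Glycolysis genes fell unevenly along the pathway. Glucose enters through SLC2A transporters, is phosphorylated by hexokinases and committed to breakdown by phosphofructokinase, and leaves as pyruvate or lactate. Of 23 tested genes of a hand-typed list 15 fell and 2 rose, with a median of -0.40, and -0.25 with control replicate 1 alone. Of 56 genes of the KEGG term for glycolysis and gluconeogenesis 24 fell and 7 rose. Their median was -0.16, but 0.0037 with control replicate 1 alone. Of 67 genes of the Reactome glycolysis term 39 fell and 6 rose, with medians of -0.30 and -0.17. At the commitment step, PFKP, the platelet-type phosphofructokinase, stood at 131, 140.1 and 124 FPKM in the control libraries and 32.4, 29.4 and 30.8 in the shJOSD2 libraries and fell by 2.24 ± 0.08 (edgeR, adjusted p = 3.17e-09). Its paralogue PFKM, the muscle type, went from 14.9, 15.1 and 14.2 to 22.7, 24.2 and 24.1 FPKM and rose by 0.53 ± 0.06, while PFKL, the liver type, did not pass the test, at 0.01 ± 0.06. Control cells thus held several times more PFKP than PFKM transcript per length, and in shJOSD2 cells the 2 levels lay closer together. PFKFB3, which makes the activator of phosphofructokinase, went from 31.3, 32.2 and 27.8 to 14.4, 14.2 and 13.7 FPKM and fell by 1.26 ± 0.07.

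Further down the pathway ENO1, the main enolase, stood at 344, 415 and 369 FPKM in the control libraries and 93.4, 90.9 and 95.7 in the shJOSD2 libraries and fell by 2.16 ± 0.08 (edgeR, adjusted p = 5.63e-09). Enolase 2 (ENO2) did not pass the test, at -0.13 ± 0.09. TPI1, LDHA, PGAM1 and PKM, which encode triosephosphate isomerase, lactate dehydrogenase A, phosphoglycerate mutase and pyruvate kinase, fell by 0.85, 0.81, 0.68 and 0.64, and the lactate exporter SLC16A3 by 0.84. GAPDH, the most abundant of the list at a mean of 2457 FPKM in control, fell by 0.40 and the aldolase ALDOA by 0.33, but neither was called with control replicate 1 alone (edgeR, adjusted p = 0.0521 and 0.227). At the entry steps SLC2A1, GPI and HK1 did not pass the test and HK2 rose by 0.36 ± 0.10, a call that ended with the lone control (edgeR, adjusted p = 0.0706). SLC2A3 and LDHB, with fitted changes of -2.71 and -2.86, were uneven in the controls. SLC2A3 stood at 1.47, 8.09 and 8.76 FPKM in control and 0.938, 1.19 and 0.990 in shJOSD2 libraries, and against control replicate 1 alone it fell by 0.62. LDHB stood at 0.384, 4.56 and 5.19 and 0.366, 0.881 and 0.272 FPKM and had a change of 0.26 against that library.

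The pentose phosphate pathway branches off at glucose 6-phosphate and supplies NADPH and ribose. Of 7 genes of a hand-typed list 4 fell and 1 rose, with a median of -0.37, and -0.32 with control replicate 1 alone. Of 26 genes of the wider KEGG term 10 fell and 3 rose. Their median was -0.22, but 0.015 with control replicate 1 alone. PGD, an NADPH-making enzyme, stood at 84.4, 84.2 and 83.7 FPKM in the control libraries and 41.6, 42.3 and 42.9 in the shJOSD2 libraries and fell by 1.14 ± 0.06 (edgeR, adjusted p = 1.20e-07). RPE, an epimerase, fell by 0.82. Both calls held with control replicate 1 alone, at -1.12 and -0.83, whereas TKT and RPIA did not pass the test.

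Serine synthesis draws on a glycolytic intermediate, and folate enzymes pass the serine carbon on to thymidylate and purines. Of 15 genes of a hand-typed list 11 fell and 0 rose, with a median of -0.92, and -0.53 with control replicate 1 alone. Of 34 genes of the KEGG term for glycine, serine and threonine 16 fell and 7 rose, with medians of -0.31 and -0.17. Of 20 genes of the KEGG folate term 11 fell and 1 rose, with medians of -0.36 and -0.24. All 3 steps from 3-phosphoglycerate to serine fell. PSAT1, the aminotransferase, stood at 59.7, 57.5 and 64.7 FPKM in the control libraries and 17.4, 19.3 and 18.4 in the shJOSD2 libraries and fell by 1.87 ± 0.12 (edgeR, adjusted p = 2.34e-07). PHGDH, the first enzyme, stood at 16.4, 20.2 and 19.1 FPKM in the control libraries and 7.32, 7.35 and 7.34 in the shJOSD2 libraries and fell by 1.49 ± 0.09 (edgeR, adjusted p = 2.62e-07), and PSPH, the phosphatase, fell by 1.08 ± 0.10. The mitochondrial hydroxymethyltransferase SHMT2 went from 62.8, 71.1 and 70.2 to 35.9, 35.9 and 37.9 FPKM and fell by 1.05 ± 0.11, TYMS, thymidylate synthase, by 1.39, and MTHFD1 by 0.92. MTHFD2 stood at 0.132, 1.37 and 1.34 FPKM in control and 0.117, 0.172 and 0.0975 in shJOSD2 libraries, so that control replicate 1 lay among the knockdown libraries and its change against that library was -0.18. ASNS, asparagine synthetase, stood at 28.5, 28.2 and 28.3 FPKM in the control libraries and 7.96, 8.52 and 8.41 in the shJOSD2 libraries and fell by 1.92 ± 0.15 (edgeR, adjusted p = 1.65e-06), with separate ranges. ATF4, a transcription factor of the amino acid response, fell from a mean of 118 to 74.6 FPKM, and TRIB3, a pseudokinase of the same response, went from 69.0, 65.3 and 64.8 to 24.6, 24.4 and 25.4 FPKM and fell by 1.57 ± 0.15 (edgeR, adjusted p = 6.49e-06). Of 44 genes of aminoacyl-tRNA synthesis 26 fell and 3 rose, YARS1, the tyrosyl-tRNA synthetase, by 1.3 ± 0.09. In the KEGG citrate cycle term, 20 of 30 fell and 3 rose, and ACLY, which turns citrate into cytosolic acetyl-CoA, went from a mean of 209 to 127 FPKM.

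Most sterol synthesis genes fell, and all of a hand-typed list of 20 enzymes did. Of 19 genes of the KEGG steroid biosynthesis term 12 fell and 2 rose (median -1.09). Of 37 genes of the GO term for cholesterol synthesis 25 fell and 2 rose (median -1.09). Of 24 genes of the Reactome term 21 fell and 0 rose (median -1.30). Of all tested genes 20.1% fell and 18.2% rose. The mevalonate pathway turns acetyl-CoA into isoprenoids and cholesterol, and its genes answer to the SREBP factors, which work with NF-Y at CCAAT boxes. The 250 bases upstream of MVD, mevalonate diphosphate decarboxylase, are shown since MVD had the largest fall among well expressed members and its window held 3 CCAAT boxes on either strand, in capitals (RefSeq annotation of GRCh38.p14, gene strand, 5′ to 3′).

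MVD, chr16:88663092-88663341, minus strand: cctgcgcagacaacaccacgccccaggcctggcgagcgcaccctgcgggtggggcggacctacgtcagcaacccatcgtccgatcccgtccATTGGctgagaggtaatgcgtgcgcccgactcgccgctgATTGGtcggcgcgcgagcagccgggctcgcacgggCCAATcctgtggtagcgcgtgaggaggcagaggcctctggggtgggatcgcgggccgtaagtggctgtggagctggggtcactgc

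The letters CCAAT stood on either strand in 11240 of 35116 windows (32.0%), and in 15 of 20 windows (75%) of the 15 sterol enzymes that had one, which describes these windows and does not locate a site in use. Of 20 sterol enzymes 20 fell and 0 rose, with a median of -1.54, and 18 fell with control replicate 1 alone (median -1.66). MVD stood at 59.0, 48.3 and 51.5 FPKM in the control libraries and 11.4, 10.4 and 10.6 in the shJOSD2 libraries and fell by 2.44 ± 0.08 (edgeR, adjusted p = 1.88e-09). LSS, lanosterol synthase, stood at 60.2, 47.0 and 52.6 FPKM in the control libraries and 14.4, 14.0 and 13.8 in the shJOSD2 libraries and fell by 2.07 ± 0.08 (edgeR, adjusted p = 1.18e-08). In both, the lowest control library was more than 3 times the highest knockdown library. EBP, MVK and ACAT2 fell by 1.80, 1.72 and 1.70, and MSMO1, the most abundant member, from 210.1, 128 and 182 to 86.4, 96.6 and 85.9 FPKM. PMVK fell least, by 0.27, and was not called with control replicate 1 alone (edgeR, adjusted p = 0.276), nor was NSDHL, which lay below 1 FPKM in every library.

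The regulators of the pathway split. Of 18 genes 7 rose and 8 fell, with a median of 0.09. INSIG1, which holds the SREBP escort in the endoplasmic reticulum, stood at 79.2, 61.7 and 62.5 FPKM in the control libraries and 17.2, 16.8 and 16.1 in the shJOSD2 libraries and fell by 2.17 ± 0.17 (edgeR, adjusted p = 1.64e-06), and its paralogue INSIG2 went from 9.86, 8.87 and 8.79 to 14.5, 14.7 and 14.6 FPKM and rose by 0.52 ± 0.08. Both factors fell, SREBF2 by 0.43 and SREBF1 by 0.55, while the escort SCAP and the site-1 protease MBTPS1 rose by 0.31 and 0.39. STARD4, a cholesterol carrier, fell by 1.77 and NPC2, which releases sterol from lysosomes, by 1.14. ABCA1, the cholesterol exporter and a target of the liver X receptors, went from 2.36, 1.84 and 2.56 to 5.72, 6.34 and 6.05 FPKM and rose by 1.28 ± 0.10 (edgeR, adjusted p = 1.83e-06). MYLIP, a ubiquitin ligase and target of the same receptors, rose by 1.18 ± 0.12. All 7 rises kept their call with the lone control, among them ABCG1 (under 0.5 FPKM; edgeR, adjusted p = 0.0267) and the receptor NR1H2. Of 24 genes of unsaturated fatty acid synthesis 15 fell and 1 rose, SCD, the main desaturase, from a mean of 258 to 95.3 FPKM.

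Cell cycle genes fell from the G1 regulators to mitosis. D-type cyclins with CDK4 and CDK6 release the E2F factors from pocket proteins, and E2F drives the replication genes. CCND1, cyclin D1, stood at 238, 204 and 231 FPKM in the control libraries and 92.3, 91.2 and 92.7 in the shJOSD2 libraries and fell by 1.43 ± 0.07 (edgeR, adjusted p = 4.61e-08). CCNE2, a cyclin E, went from 3.12, 2.96 and 4.12 to 0.572, 0.671 and 0.631 FPKM and fell by 2.58 ± 0.24 (edgeR, adjusted p = 4.50e-06), while its paralogue CCNE1 did not pass the test at 0.06 ± 0.10. CDKN1B, the CDK inhibitor p27, went from 19.7, 16.2 and 19.1 to 33.9, 37.8 and 37.7 FPKM and was the one gene of 13 G1 cyclins, CDKs and inhibitors that rose, by 0.85 ± 0.07, against 6 that fell. The inhibitor CDKN1A (p21), CDK4 and CCND3 did not pass the test, at changes of -0.15, -0.04 and 0.04. Against control replicate 1 alone CDKN1A was called lower, at -0.26.

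Of 13 E2F and pocket protein genes 9 fell and 1 rose, and the same numbers were called with control replicate 1 alone. E2F1 stood at 13.4, 16.8 and 18.5 FPKM in the control libraries and 6.06, 5.82 and 5.51 in the shJOSD2 libraries and fell by 1.63 ± 0.18 (edgeR, adjusted p = 1.89e-05). The partner TFDP1 went from 39.1, 45.2 and 48.8 to 28.2, 28.8 and 27.7 FPKM and fell by 0.80 ± 0.09, and the pocket protein RBL1 fell by 1.16. E2F5 alone rose, by 0.75 ± 0.08. Of 36 KEGG DNA replication genes 29 fell and 0 rose (median -0.83; 24 lower with control replicate 1 alone). The helicase subunits MCM6 and MCM2 went from means of 29.5 to 10.9 and of 31.0 to 11.9 FPKM, and PCNA, the sliding clamp, from 175 to 98.0. GINS2 stood at 9.24, 12.1 and 12.4 FPKM in the control libraries and 2.49, 2.61 and 2.35 in the shJOSD2 libraries. RRM2 stood at 10.2, 11.9 and 17.1 FPKM in the control libraries and 2.52, 2.27 and 2.50 in the shJOSD2 libraries. In both genes control replicate 1 was the lowest control, and still lay more than 3 times above each knockdown library. For the mismatch repair and Fanconi anaemia terms 18 of 23 and 32 of 54 fell. Of 121 genes of the Reactome term for resolving sister chromatid cohesion 92 fell and 3 rose. PLK1 stood at 23.0, 30.2 and 29.4 FPKM in the control libraries and 6.06, 5.07 and 5.36 in the shJOSD2 libraries and fell by 2.47 ± 0.15 (edgeR, adjusted p = 1.76e-07), and CDC20, the activator of the anaphase ligase, fell from a mean of 94.1 to 29.0 FPKM. LMNB1 went from 20.8, 24.4 and 30.3 to 4.32, 4.69 and 5.28 FPKM.

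Spliceosome, ribosome biogenesis and proteasome genes fell in smaller steps, and those of the ribosome itself did not fall as a group. Of 130 KEGG ribosome genes 26 fell and 8 rose, a share of falls near that of all tested genes (20.1%), with a median of -0.03 whose sign turned with the scaling, and with control replicate 1 alone 9 fell and 12 rose. Of 131 spliceosome genes 80 fell and 3 rose, with a median of -0.37, and 52 fell with control replicate 1 alone. SNRNP70, the U1-70K protein, went from a mean of 43.7 to 15.5 FPKM (log2 change -1.65 ± 0.09), and ALYREF, an mRNA export factor, from 53.6 to 23.1 (-1.37 ± 0.11). Of 74 ribosome biogenesis genes 43 fell and 6 rose, a count of 24 and 1 with the lone control. NOP56, a core protein of box C/D particles in that term, had a fall of 0.24 that was 0.00 against control replicate 1, where it stood at 36.8, 45.9 and 45.0 FPKM in control and 38.6, 40.7 and 40.8 in shJOSD2 libraries. Of 42 proteasome genes 24 fell and 1 rose, PSMA1 of the core particle falling from a mean of 46.6 to 22.8 FPKM, by 1.18 ± 0.06. HSP90AB1, the constitutive cytosolic chaperone, fell from a mean of 717 to 213 FPKM, a change of -1.90 ± 0.05, and the tubulin TUBA1B from 630.3 to 199 FPKM (-1.81 ± 0.09).

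The transcripts of YAP and TAZ themselves were not called. YAP1 stood at 14.8, 13.0 and 14.8 FPKM in the control libraries and 12.7, 15.4 and 13.7 in the shJOSD2 libraries (log2 change -0.17 ± 0.08, edgeR adjusted p = 0.115). WWTR1, which encodes TAZ, stood at 26.4, 24.0 and 30.4 FPKM in the control libraries and 29.5, 29.2 and 28.1 in the shJOSD2 libraries (log2 change -0.04 ± 0.09, edgeR adjusted p = 0.753). In both genes the 2 groups overlapped. Of the TEAD factors, TEAD1 went from 24.4, 20.1 and 24.8 to 20.2, 19.2 and 19.3 FPKM and fell by 0.38 ± 0.07, and TEAD4 from 9.85, 11.6 and 13.0 to 8.83, 8.84 and 8.29 FPKM and fell by 0.56 ± 0.12. TEAD3 went from 6.46, 6.01 and 5.23 to 9.04, 8.06 and 8.86 FPKM and rose by 0.40 ± 0.10, and TEAD2 did not pass the test at 0.03 ± 0.09. With control replicate 1 alone the calls of TEAD4 and TEAD3 ended (edgeR, adjusted p = 0.166 and 0.113) and that of TEAD1 held. VGLL4, which competes with YAP for TEAD, stood at 7.61, 6.73 and 6.22 FPKM in the control libraries and 12.5, 13.5 and 13.4 in the shJOSD2 libraries and rose by 0.79 ± 0.07 (edgeR, adjusted p = 3.97e-06), with no overlap.

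Of 19 genes of the Hippo kinase core 4 fell (21.1%) and 3 rose (15.8%), shares near those of all tested genes (20.1% and 18.2%). The kinase LATS2, itself a YAP target, went from 12.3, 11.5 and 12.1 to 9.10, 7.98 and 8.55 FPKM and fell by 0.63 ± 0.07, the scaffold WWC2 fell by 0.57 and the kinase STK3 (MST2) by 0.49. LATS1, STK4, SAV1 and NF2 did not pass the test. The largest rise of the core was that of AMOTL1, which tethers YAP at junctions, by 0.37 ± 0.07. In the wider KEGG Hippo term 48 of 145 genes fell and 28 rose, with a median of -0.10 whose sign turned with the scaling.

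Targets of YAP and TAZ did not fall together. Of 22 genes of a published target signature 12 rose and 4 fell, with a median of 0.29 (0.28 to 0.44 over the scalings tried), and with control replicate 1 alone 8 rose and 4 fell (median 0.18). ANKRD1, a cardiac ankyrin repeat protein and a sensitive target, stood at 60.5, 49.6 and 47.1 FPKM in the control libraries and 124, 127 and 132 in the shJOSD2 libraries and rose by 1.14 ± 0.08 (edgeR, adjusted p = 5.92e-07). CCN1, the matricellular protein CYR61, stood at 74.7, 75.3 and 85.1 FPKM in the control libraries and 114, 117 and 121 in the shJOSD2 libraries and rose by 0.44 ± 0.06 (edgeR, adjusted p = 1.55e-04). Both had separate ranges. CCN2 (CTGF) went from 62.3, 45.4 and 51.4 to 68.0, 77.4 and 76.6 FPKM and rose by 0.34 ± 0.09, which was not called against control replicate 1 alone (edgeR, adjusted p = 0.380), where control replicate 1 was the highest control. NT5E, the ecto-nucleotidase CD73, went from 103, 93.9 and 101 to 194, 208 and 206 FPKM and rose by 0.88 ± 0.05, and the stress gene GADD45A rose by 0.88 ± 0.12. CRIM1, a transmembrane BMP antagonist, stood at 53.5, 50.7 and 59.2 FPKM in the control libraries and 28.9, 25.3 and 25.9 in the shJOSD2 libraries and had the largest fall of the signature, 1.18 ± 0.09 (edgeR, adjusted p = 7.29e-07). FOXF2, LATS2 and FJX1 fell by 0.69, 0.63 and 0.46. MYOF, AMOTL2, F3 and GLS2 did not pass the test, nor did the receptor kinase AXL, at 83.1, 84.8 and 83.4 FPKM in control and 92.7, 90.0 and 94.5 in shJOSD2 libraries, whose fitted change was -0.01 and 0.15 without TMM factors, where it was called higher.

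Adhesion and cytoskeleton genes changed in both directions. Beside LASP1, ARPC5, a subunit of the Arp2/3 complex that branches actin, fell from a mean of 11.8 to 2.94 FPKM (-2.15 ± 0.08). FSCN1, fascin, which bundles actin, stood at 81.2, 82.3 and 81.3 FPKM in the control libraries and 20.1, 19.3 and 19.6 in the shJOSD2 libraries and fell by 2.20 ± 0.06 (edgeR, adjusted p = 1.34e-09), with no overlap. CAV1, the coat protein of caveolae, went from a mean of 219.9 to 120.0 FPKM. The abundant actins ACTG1 and ACTB fell from means of 1584 to 858 and of 951 to 531 FPKM. ACTA2, smooth muscle actin and the most abundant of the fibroblast markers, went from 13.8, 12.9 and 11.7 to 28.6, 28.4 and 27.5 FPKM and rose by 0.99 ± 0.07. In that marker list 3 of 7 rose and 0 fell, with PDGFRA and PDGFRB rising too, while COL1A1 did not pass the test and COL3A1, COL1A2, LUM and DCN stood at or near 0. Of 22 integrin subunits 8 rose and 6 fell. ITGB2, the leukocyte beta-2 subunit, stood at 2.89, 3.03 and 2.87 FPKM in the control libraries and 11.3, 11.8 and 11.1 in the shJOSD2 libraries and rose by 1.81 ± 0.07 (edgeR, adjusted p = 8.36e-09). ITGA5, the fibronectin receptor, went from 27.1, 24.7 and 20.3 to 49.1, 49.6 and 48.4 FPKM and rose by 0.88 ± 0.09, and ITGB3 and ITGA1 rose by 1.17 and 1.22. ITGB4 and ITGA6, which form the hemidesmosome integrin, fell by 0.64 and 0.43. The summed leukocyte markers, given above, were not higher in shJOSD2 libraries, and the pan-leukocyte marker PTPRC stood at 0.633, 0.915 and 0.624 FPKM in control and 1.003, 1.14 and 0.838 in shJOSD2 libraries.

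More matrix genes rose than fell. Of 200 genes of the GO extracellular matrix term 70 rose and 30 fell (median 0.33; 53 and 21 with control replicate 1 alone), and of 81 genes of the Reactome collagen formation term 34 and 14. LAMA4, a laminin chain, went from a mean of 1.95 to 4.04 FPKM and LAMA2 from 0.476 to 1.87. Among genes of the epithelial-mesenchymal switch, SNAI2, the repressor Slug, stood at 3.98, 3.38 and 3.37 FPKM in the control libraries and 14.3, 15.4 and 15.8 in the shJOSD2 libraries and rose by 1.93 ± 0.09 (edgeR, adjusted p = 2.04e-08). SNAI2 aside, CDH2 (N-cadherin) rose by 0.33 ± 0.05, VIM (vimentin) went from 656, 711 and 674 to 546, 541 and 550.2 FPKM and fell by 0.47 ± 0.07, and CDH1 (E-cadherin) and ZEB1 did not pass the test.

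Of 8 tested ligands of the EGF receptor family 5 fell, and of 4 receptors 1 rose. AREG (amphiregulin) stood at 85.8, 86.2 and 79.9 FPKM in the control libraries and 36.2, 36.7 and 34.9 in the shJOSD2 libraries and fell by 1.37 ± 0.07 (edgeR, adjusted p = 6.56e-08). NRG1 (neuregulin) stood at 12.6, 12.7 and 13.4 FPKM in the control libraries and 5.06, 5.15 and 5.21 in the shJOSD2 libraries and fell by 1.48 ± 0.05 (edgeR, adjusted p = 4.72e-09). TGFA went from 26.4, 24.1 and 28.7 to 12.6, 11.8 and 11.6 FPKM and fell by 1.28 ± 0.08, and EREG (epiregulin) and HBEGF fell by 0.87 and 0.68. All 5 of these falls held with control replicate 1 alone. EGF and NRG2 rose at means under 2 FPKM, the NRG2 call ending with that library (edgeR, adjusted p = 0.0815), and BTC did not pass the test. EGFR stood at 38.7, 33.3 and 37.7 FPKM in the control libraries and 37.4, 36.2 and 36.0 in the shJOSD2 libraries and ERBB2 did not pass the test either, at changes of -0.15 and -0.20, although EGFR was called lower with the lone control, at -0.20. ERBB3, the neuregulin receptor, went from 3.72, 2.96 and 2.77 to 6.95, 6.44 and 6.91 FPKM and rose by 0.95 ± 0.10.

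TXNIP and its relative ARRDC4, arrestin-like proteins that reduce glucose uptake, are induced by the glucose-sensing factors MondoA (MLXIP) and ChREBP (MLXIPL) with their partner MLX through pairs of E-boxes. The 250 bases upstream of TXNIP are shown since they held the pair of CACGNG and, after any 5 bases, CNCGNG, in capitals (RefSeq annotation of GRCh38.p14, gene strand, 5′ to 3′), a run of letters found in 149 of all 35116 windows (0.424%), both strands searched. Of 14 genes with a window in the MYC, MAX and MXD network list, which holds TXNIP and ARRDC4, 2 held it, in 2 of 20 windows (10%). These were TXNIP and MXI1, and ARRDC4 was not among the genes found to hold it.

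TXNIP, chr1:145996580-145996829, minus strand: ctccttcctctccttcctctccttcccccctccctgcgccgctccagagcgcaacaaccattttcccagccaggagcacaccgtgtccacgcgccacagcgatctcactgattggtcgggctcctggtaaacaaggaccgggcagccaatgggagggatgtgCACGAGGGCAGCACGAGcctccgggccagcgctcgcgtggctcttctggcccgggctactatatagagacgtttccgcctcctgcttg

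TXNIP stood at 20.5, 15.1 and 17.7 FPKM in the control libraries and 86.9, 100.1 and 101 in the shJOSD2 libraries and rose by 2.29 ± 0.13 (edgeR, adjusted p = 1.20e-07), by 2.11 with control replicate 1 alone. ARRDC4 stood at 1.64, 1.41 and 1.14 FPKM in the control libraries and 5.75, 6.53 and 6.31 in the shJOSD2 libraries and rose by 2.00 ± 0.15 (edgeR, adjusted p = 8.95e-07). No control library of either gene came near a knockdown library. Of the factors, MLXIPL went from 3.03, 2.22 and 2.12 to 4.86, 4.44 and 4.87 FPKM and rose by 0.80 ± 0.13, MLX fell by 0.55 ± 0.06, and MLXIP did not pass the test at -0.01 ± 0.06. In the same network the repressor MXD3 fell by 1.58, MXI1 and MXD4 rose by 0.62 and 0.56, and MAX and MNT had changes of 0.25 (called) and 0.04 (not called). CA9, the carbonic anhydrase of acidic and hypoxic cells, stood at 1.31, 1.51 and 0.831 FPKM in the control libraries and 5.27, 5.35 and 5.29 in the shJOSD2 libraries and rose by 1.97 ± 0.40.

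Some abundant genes of the NRF2 response to oxidants fell. Of 24 NRF2 targets 12 fell and 3 rose (median -0.38), and with control replicate 1 alone 7 and 2 (median -0.17). PRDX1, a peroxiredoxin, stood at 244, 265 and 268 FPKM in the control libraries and 98.1, 103 and 107 in the shJOSD2 libraries and fell by 1.49 ± 0.06 (edgeR, adjusted p = 1.31e-08). NQO1, a quinone reductase, went from 14.4, 17.8 and 17.7 to 5.93, 6.06 and 6.47 FPKM and fell by 1.59 ± 0.10, TXNRD1 (thioredoxin reductase) by 0.91 ± 0.09 and the cystine importer SLC7A11 by 1.37 ± 0.19. FTL, the ferritin light chain and the most abundant of the list, went from 752, 817 and 837 to 1225, 1271 and 1257 FPKM and rose by 0.49 ± 0.08. NFE2L2, which encodes NRF2, HMOX1 and GCLC did not pass the test. Of 5 tested genes, the metallothioneins and their factor MTF1, 3 fell, MT2A from 87.8, 139 and 108 to 34.2, 26.1 and 28.5 FPKM by 2.07 ± 0.17 (edgeR, adjusted p = 1.64e-06). MT2A was the one of them still called with control replicate 1 alone.

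Cell identity and surface lists moved in both directions, biliary markers more often downward. Of 15 biliary markers 8 fell (53.3%) and 4 rose (26.7%), against 20.1% and 18.2% of all tested genes. Their median log2 change was -0.30, and -0.23 with control replicate 1 alone. The keratins KRT19, KRT7, KRT8 and KRT18 fell by 0.22 to 0.58, and SOX9 and SPP1 rose by 0.54 and 0.55. Of 15 class I antigen presentation genes 5 rose and 4 fell, with a median of -0.04 whose sign turned with the scaling. ERAP1, which trims peptides, went from 6.67, 6.10 and 6.11 to 3.66, 4.07 and 3.61 FPKM and fell by 0.88 ± 0.06, and NLRC5, a transactivator of class I genes, rose by 0.69 ± 0.13 at means under 2 FPKM. Among 22 hepatocyte markers 9 fell and 5 rose. Of the 22, 10 were at least 4-fold higher in control replicates 2 and 3 than in replicate 1, 7 of the 9 that fell among them. Here the floor of 1 FPKM was not applied, and 705 of 21492 tested genes met that looser rule. The median log2 change of the 22 markers was -1.15, and 0.55 with control replicate 1 alone. Their summed FPKM lay at 57.5 to 132 in control and 82.8 to 87.1 in shJOSD2 libraries. APOA1 stood at 2.91, 40.05 and 45.5 FPKM in control and 3.68, 6.24 and 3.04 in shJOSD2 libraries, APOE at 1.09, 12.2 and 13.7 and 1.29, 1.79 and 1.07. Control replicate 1 lay among the knockdown libraries for APOE and just below them for APOA1, and the changes of -2.93 (APOA1) and -2.85 (APOE) became 0.45 and 0.22 against it. GPC3, AHSG and ACTL8 had changes that turned positive against it as well, and AC010323, whose symbol is a clone name, went from -1.38 to 0.03.

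**Figure D5:**
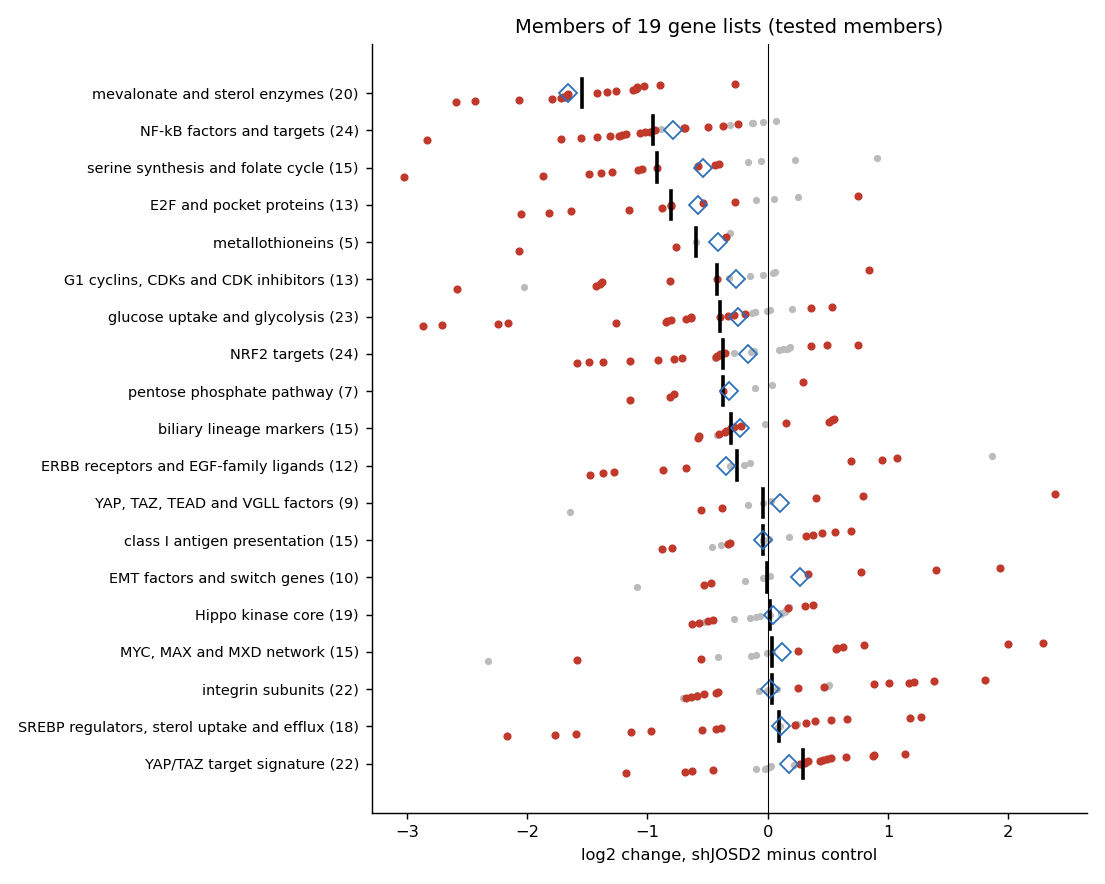
Fitted log2 change of each tested member of 19 gene lists in shJOSD2 against control, called members in red and the rest in grey, with a black bar at the list's median and a blue diamond at its median against control replicate 1 alone. Sterol enzymes have the lowest median, -1.54, and the medians of the other lists lie within 1 log2 unit of 0.

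The 2 knockdowns were set against the same control libraries, so what sets shJOSD2 cells apart was tested directly as the difference between shJOSD2 and shIDH1 libraries. That test called 9635 genes (44.8%), 5156 higher (24.0%) and 4479 lower (20.8%) in shJOSD2 cells. Against control, 5102 of the 8237 called genes were called in the same direction in shIDH1 cells and 967 in the opposite one. In shIDH1 cells 5258 of all tested genes rose and 5511 fell. Of 36 DNA replication genes 33 fell and 1 rose there, of 120 cell cycle genes 81 and 13, of 131 spliceosome genes 107 and 5. All 20 sterol enzymes fell there, and of 200 extracellular matrix genes 89 rose and 35 fell. NF-kB genes were lower than in shIDH1 cells: 14 of 24 were called lower and 3 higher. BIRC3 stood at 5.52, 5.02 and 4.76 FPKM in shIDH1 libraries, and the difference was -2.94 ± 0.12 (edgeR, adjusted p = 3.93e-09). NFKBIA stood at 32.9, 34.2 and 33.96 FPKM there, a difference of -1.28 ± 0.06 (edgeR, adjusted p = 6.73e-09). For these 2 genes the shIDH1 libraries lay near the control range. NFKB1 was the other way, at 1.59, 1.64 and 1.62 FPKM in shIDH1 libraries and higher in shJOSD2 cells by 0.86 ± 0.08.

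Glycolysis genes split between the knockdowns, with 11 of 23 higher and 8 lower in shJOSD2 cells. PFKP stood at 137, 142 and 150.0 FPKM in shIDH1 libraries and was lower in shJOSD2 cells by a log2 difference of -2.36 ± 0.08 (edgeR, adjusted p = 1.03e-09), and ENO1 and PFKFB3 differed by -1.19 and -1.64. PGAM1, GPI and PKM were higher in shJOSD2 cells, by 1.06, 1.04 and 0.66. Of the serine enzymes PSAT1 stood at 46.1, 66.3 and 61.2 FPKM in shIDH1 libraries and differed by -1.80 ± 0.12, and PHGDH did not pass the test of the difference. Sterol enzymes were less low in shJOSD2 cells, 11 of 20 being called higher and 3 lower there, MVD among the latter at -0.47. NRF2 targets were lower in shJOSD2 cells for 19 of 24 genes and higher for 2, HMOX1 standing at 22.3, 50.1 and 63.6 FPKM in shIDH1 and 4.10, 4.66 and 4.54 in shJOSD2 libraries. Among YAP/TAZ targets 14 of 22 were lower and 4 higher than in shIDH1 cells. ANKRD1 stood at 1125, 1162 and 1210 FPKM in shIDH1 libraries, which left shJOSD2 cells between control and shIDH1 with a difference of -3.34 ± 0.09 (edgeR, adjusted p = 3.45e-10), and NT5E and ASAP1 were higher in shJOSD2 cells by 1.37 and 1.02. JOSD2 stood at 1.51, 1.85 and 1.70 FPKM in the shIDH1 libraries, also below control, and lower still in shJOSD2 cells by -1.19 ± 0.16.

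Some well expressed genes were called in opposite directions by the 2 hairpins, and for these the values stand side by side. TXNIP, which rose in shJOSD2 cells, stood at 4.44, 3.90 and 5.61 FPKM in shIDH1 libraries, below control, and the difference between the knockdowns was 4.22 ± 0.14 (edgeR, adjusted p = 1.20e-09). MMP7 stood at 127, 126 and 116 FPKM in shIDH1 libraries, above control, a difference of -4.04 ± 0.15 (edgeR, adjusted p = 2.07e-09). LASP1 stood at 195, 189 and 193 FPKM in shIDH1 libraries, a difference of -2.82 ± 0.05 (edgeR, adjusted p = 5.31e-11). In these 3 genes no library of one knockdown came near the other. CA9, the nuclear receptor NR0B2, the actin regulator WASF3, the membrane protein TTYH2, MACROD1 and CDS1 were higher in shJOSD2 than in shIDH1 cells by 1.41 to 3.68. FAM234A, the respiratory chain assembly gene COX7A2L, TRIB3, NDRG2, the cargo receptor TMED5 and CARD10 were lower, by -2.37 to -1.72. VGLL4 stood at 2.99, 2.91 and 2.84 FPKM in shIDH1 libraries and was higher in shJOSD2 cells by 2.02 ± 0.07.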

How the data were processed

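Poly(A) RNA was sequenced as strand-marked dUTP libraries with unique molecular identifiers, read from both ends on an Illumina NovaSeq, per the labels' protocols. The tools named are StringTie 1.3.4d, HISAT2 2.0.4, cutadapt 1.9 and UMI-tools, with the build GRCh38, per the submitters' processing notes. The sources used here do not give the annotation release, the counting step, its strand setting or whether duplicates were removed. Genes that overlap or have near-identical copies are therefore uncertain. The deposited counts are whole numbers per gene, not normalized, and FPKM, also from the authors, is scaled by transcript length and library size, per the file headers. Low counts gather at multiples of 4, so 1 fragment may carry about 4 counts.

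Counts of all 9 libraries were fitted in edgeR 4.0.16 (R 4.3.3) with a mean per group, TMM scaling and filterByExpr, and the quasi-likelihood F-test was applied. Its p-values were adjusted by Benjamini-Hochberg over the 21492 tested genes, with calls at 0.05. Standard errors come from dividing the absolute log2 change by the root of F. Levels are FPKM. The edgeR step was tested on simulated data. Gene groups were taken from the KEGG, GO and Reactome columns of the table and from hand-typed lists, and are given as counts and medians with no set test. The comparison, its members and the lists were chosen with earlier results of these data known. Genes were named by rule: JOSD2, JOSD1, ATXN3, IDH1, YAP1, WWTR1 and TEAD1 to TEAD4; the 15 largest rises and falls among called genes with a symbol, a mean of at least 5 FPKM in the higher group, separate FPKM ranges and a call with control replicate 1 alone; up to 5 most changed called members and the most abundant member of each group; the 8 most changed genes in each direction called in the opposite direction by shIDH1; and the 8 most abundant called genes that turn with the lone control. Other members of the groups, and single genes of the terms, were named after their values were seen, so were the motifs, which were searched in RefSeq promoter windows of GRCh38.p14. Alternatives were DESeq2 1.42.0, and limma 3.58.1 on log2(FPKM + 1) and log2(FPKM + 0.1) for genes of at least 1 FPKM in 3 libraries. Further ones were other scalings and filters, a replicate block, fewer libraries and counts divided by 4. Each control and shJOSD2 library was also left out in turn, but no single shIDH1 library was. Lone-control counts per gene group were added after seeing the data. Figures were drawn with matplotlib 3.10.9. A few genes are not reported here.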

Additional observations from a re-analysis of the deposited data

How the results depend on the processing

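Counts of called genes kept within 1.5 times of 8237 under all alternatives tried, and 2 directional counts did not. With control replicate 1 as the lone control 2534 genes were called higher against 3907, and limma on log2(FPKM + 0.1) called 2846 lower against 4330, with 4321 higher. DESeq2 called 8811 genes, DESeq2 size factors in edgeR 8238, no filter 7276, a minimum of 40 counts 8262, the 6 libraries alone 8020 and counts divided by 4 gave 8376. Leaving out 1 control or shJOSD2 library gave 6939 to 8218 calls. With the difference between the knockdowns, DESeq2 called 10016 genes against 9635. Replicate numbers paired the libraries weakly at most. Deviations of same-numbered control and shJOSD2 libraries correlated at 0.088, 0.017 and 0.057, and those of unlike-numbered libraries at -0.074 to 0.021. A fit with the replicate block called 7823 genes, 3690 higher and 4133 lower, and 9296 between the knockdowns. Control replicate 2 correlated more with shJOSD2 replicate 3 than with its own number.

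Of 247 called genes that are list members or were named by rule, 198 kept their call with control replicate 1 alone, 41 lost it and 8 turned direction, and under the other alternatives 208 to 247 kept it. The 8 that turned had log2 changes of 0.0038 (NOP56), 0.26 (LDHB), 0.21 (ACTL8), 0.45 (APOA1), 0.22 (APOE), 1.25 (AHSG), 1.11 (GPC3) and 0.032 (AC010323) against that library, all of them higher in control replicates 2 and 3 than in 1. HK1, not called in the fit of counts, was called higher by limma at 0.13 and 0.14 for the pseudocounts 1 and 0.1. AXL, also not called there, was called higher without TMM factors at 0.15 and by limma at 0.14 with either pseudocount. Both lie at a change below the shift between the scalings. Depth limits genes of low level, the more so if 1 fragment carries about 4 counts, and 3 libraries per group limit all of them.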

Other observations

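Groups of transport and secretion that were not described above also changed with the shJOSD2 hairpin. Lysosome genes moved both ways, 34 of 121 rising (28.1%) and 38 falling (31.4%), against 18.2% and 20.1% of all tested genes. Their median log2 change was 0.04, and -0.03 with control replicate 1 alone. PSAP, the precursor of the saposins that help degrade sphingolipids, stood at 317, 291 and 271 FPKM in the control libraries and 761, 791 and 789 in the shJOSD2 libraries and rose by 1.27 ± 0.07 (edgeR, adjusted p = 1.42e-07). LAMP1, a main protein of the lysosomal membrane, stood at 50.0, 49.6 and 53.1 FPKM in the control libraries and 16.3, 15.9 and 15.4 in the shJOSD2 libraries and fell by 1.83 ± 0.07 (edgeR, adjusted p = 5.32e-09). Neither gene had overlapping groups, and both calls held with control replicate 1 alone, at 1.18 and -1.77. SUMF1, which activates the sulfatases of the lysosome, went from 5.25, 4.68 and 4.63 to 1.03, 1.10 and 0.985 FPKM and fell by 2.37 ± 0.08. Of 37 ABC transporter genes 16 rose (43.2%) and 5 fell (13.5%). Their median was 0.25, and 0.25 with control replicate 1 alone. ABCB9, a peptide transporter of lysosomes, went from 2.01, 1.78 and 1.42 to 6.62, 6.64 and 6.53 FPKM.

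Of 62 genes of the complement and coagulation term 23 rose (37.1%) and 15 fell (24.2%), against 18.2% and 20.1% of all tested genes. Their median was 0.38, and 0.35 with the lone control. FGB, the fibrinogen beta chain, stood at 1.53, 1.72 and 1.87 FPKM in the control libraries and 7.35, 7.01 and 7.05 in the shJOSD2 libraries and rose by 1.91 ± 0.08 (edgeR, adjusted p = 1.31e-08), and FGA and FGG rose by 0.87 and 0.63. The fibrinogen genes thus moved apart from APOA1 and APOE among the hepatocyte markers, with control replicate 1 lowest for all 3. SLC40A1, the iron exporter ferroportin, went from 4.66, 3.47 and 4.90 to 14.0, 13.7 and 13.1 FPKM and rose by 1.5 ± 0.13. IGFBP1, which binds insulin-like growth factors, went from 83.6, 81.6 and 97.6 to 29.0, 25.7 and 25.8 FPKM and fell by 1.85 ± 0.08, while its target IGF2 was uneven in the controls.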
